A study of Mus musculus with 3 samples.

Results

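RefSeq transcripts that carry a noncoding accession (prefix NR_) were followed through 3 RNA-seq libraries of C2C12 cells, a mouse line that grows as myoblasts and can be turned towards muscle or bone. Entries were chosen by length and measured level: an exon length of at least 300 nt and 1 FPKM (a count of sequenced fragments divided by transcript length and library depth) or more in at least 1 library. Of 2679 NR_ transcripts listed, 1869 were long enough and 296 met both conditions after the imprinted genes H19, Meg3 and Kcnq1ot1 were left out, which removed 1 transcript. The files listed 28699 RefSeq transcripts in common. Just inside the level threshold lay 2700097O09Rik, with a highest value of 1.00 FPKM, and Gm5176 with 1.03 FPKM. Just outside lay 2310015A10Rik with 0.999 FPKM and Gm9079 with 0.988 FPKM. Because levels chose the entries, the levels and ratios below describe them and test nothing.

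Each group had 1 library. Mock-transfected cells and cells transfected with an shRNA against KSRP (gene symbol Khsrp, an RNA-binding protein of mRNA decay and microRNA processing) were in growth medium with 20% serum, without BMP2. The remaining library came from mock-transfected cells given BMP2, a bone-inducing growth factor. Its title also names differentiation medium, whose protocol has 2% horse serum, and the protocol gives BMP2 as 100 to 300 ng/ml, so the effects of medium and BMP2 cannot be told apart. Khsrp itself was at 31.4 FPKM in mock, 28.4 in the shKSRP-labelled library and 27.1 in the BMP2 library, 90.6% and 86.5% of mock. The knockdown is therefore named below only as the label gives it. All libraries were made from RNA bound to oligo(dT) beads, so noncoding RNAs without a poly(A) tail are under-represented. Myoblast markers summed to 449, 366 and 285 FPKM in mock, the shKSRP-labelled library and the BMP2 library, and haematopoietic, endothelial and epithelial markers to at most 0.346 FPKM. Neural markers summed to 9.90, 1.37 and 1.02 FPKM, and the part of the cells behind them in any result was not tested. Interval widths imply about 62100000, 68500000 and 60400000 mapped fragments in the same order, which makes the median half-width 3.96%, 3.52% and 4.05% of the level at 10 FPKM or more, and 12.1%, 11.0% and 11.4% between 1 and 10 FPKM. With 1 library per group there is no replicate spread, no test and no p-value. The ± values are half-widths of the deposited 95% intervals, which cover counting and assignment error only.

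Long noncoding RNAs are transcribed and often spliced like mRNAs but encode no known protein. Some act in the nucleus: Neat1 is the scaffold of paraspeckles, Malat1 gathers in splicing speckles and Xist silences an X chromosome. Host genes carry small nucleolar RNAs (snoRNAs), which guide the modification of ribosomal RNA, or microRNAs inside their introns or exons, and the spliced host RNA is often degraded during translation. Pseudogenes are copies of coding genes, and a read from one can match its coding relative. NR_ variants of coding genes are mostly splice forms judged to be targets of nonsense-mediated decay.

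The 296 entries divided into 112 long noncoding transcripts (105 genes), 27 host gene transcripts (26 genes), 72 pseudogene transcripts (68 genes), 84 variants of coding genes (78 genes) and 1 structured RNA, Rpph1. In mock, 234 entries reached 1 FPKM, in the shKSRP-labelled library 217, and in the BMP2 library 228. Some of these classes overlapped coding sequence: 15 long noncoding, 1 host and 17 pseudogene transcripts had at least 50% of their exon length in exons of a coding gene on the same strand. The level of the 200 noncoding genes was taken as the sum of the gene's RefSeq transcripts and of transcripts assembled from the reads at the same locus. Of the genes above 0, assembled transcripts held most of the level in 30 of 188 in mock, 23 of 175 in the shKSRP-labelled library and 24 of 182 in the BMP2 library, so the level on RefSeq transcripts alone is given for many of the genes whose call it changes. Summed FPKM of the host genes was 2542 in mock, 979.7 in the shKSRP-labelled library and 1472 in the BMP2 library. Long noncoding genes summed to 3451, 2822 and 3184 FPKM and pseudogenes to 7352, 5714 and 5148 FPKM. Over all genes the sum was 674904, 530895 and 560930 FPKM, also highest in mock.

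The microRNAs inside the host genes show which seeds, the bases that pair with targets, the hosts can supply. One or more mature strands are shown for each microRNA host other than Oaz1-ps, read from RefSeq (GRCm38.p6), 5′ to 3′, with bases 2 to 8 in capitals. All 11 microRNA entries found inside the 7 microRNA hosts had a mature sequence in the table.
mmu-miR-322-5p (in C430049B03Rik): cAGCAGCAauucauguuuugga
mmu-miR-15a-5p (in Dleu2): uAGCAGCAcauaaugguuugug
mmu-miR-16-5p (in Dleu2): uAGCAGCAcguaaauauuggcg
mmu-miR-503-5p (in C430049B03Rik): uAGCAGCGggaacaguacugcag
mmu-miR-351-5p (in C430049B03Rik): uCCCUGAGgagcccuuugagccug
mmu-miR-125b-5p (in Mir100hg): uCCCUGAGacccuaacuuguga
mmu-miR-22-3p (in Mir22hg): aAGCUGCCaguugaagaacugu
mmu-miR-199a-3p (in Dnm3os): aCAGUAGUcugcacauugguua
mmu-miR-214-3p (in Dnm3os): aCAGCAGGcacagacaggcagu
mmu-miR-92a-3p (in Mir17hg): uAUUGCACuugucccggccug
Among the strands shown, miR-322 from one host and miR-15a and miR-16 from another had the seed AGCAGCA, and miR-503 differed from it in the last seed base. The seed CCCUGAG was shared by miR-351 and miR-125b.

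The snoRNA hosts that the comparisons turn on are shown around their annotated start, since vertebrate snoRNA hosts are known for starting with a run of pyrimidines, as mRNAs of the translation machinery do. Each line holds 30 bases before the start and 30 from it (RefSeq, GRCm38.p6), with the unbroken run of C and T from the start base in capitals.
Gas5, chr1:161035136-161035195, plus strand: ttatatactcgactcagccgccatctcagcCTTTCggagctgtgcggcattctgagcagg
Snhg8, chr3:123508307-123508366, minus strand: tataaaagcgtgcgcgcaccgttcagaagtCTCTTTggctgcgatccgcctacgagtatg
1110038B12Rik, chr17:34952439-34952498, minus strand: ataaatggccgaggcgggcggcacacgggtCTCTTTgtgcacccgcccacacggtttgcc
2410006H16Rik, chr11:62602847-62602906, plus strand: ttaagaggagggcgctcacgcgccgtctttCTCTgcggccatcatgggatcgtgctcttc
Snhg1, chr19:8723457-8723516, plus strand: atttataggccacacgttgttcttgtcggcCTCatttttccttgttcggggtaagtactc
Snhg12, chr4:132308648-132308707, plus strand: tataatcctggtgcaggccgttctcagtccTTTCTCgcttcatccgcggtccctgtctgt
Snhg3, chr4:132353657-132353716, minus strand: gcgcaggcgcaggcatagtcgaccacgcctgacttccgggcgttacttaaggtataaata
A C at the annotated start followed by at least 4 bases that are each C or T, read on the gene's strand alone, was present in 4 of 17 snoRNA hosts with a window (23.5%). The same was true of 3.07% of the 9055 genes at 1 FPKM or more with a window, and of 2.51% of all 32851 windows. Allowing that run to begin up to 5 bases on either side of the start gave 9 of 17 hosts (52.9%) and 23.8% of those genes. Snhg3 has no such run at its annotated start, which says only that the letters are not there.

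snoRNA hosts were lower outside mock. Gas5, a spliced host known for growth arrest, was at 231 ± 9.85 FPKM in mock, 41.2 ± 1.19 in the shKSRP-labelled library and 57.2 ± 2.11 in the BMP2 library. Of that, 215 FPKM in mock lay on transcripts assembled from the reads, against 25.8 and 51.0 in the others. The Gas5 RefSeq transcripts alone were at 15.8, 15.5 and 6.18 FPKM, so the difference in the shKSRP-labelled library rests on assembled transcripts. Snhg8 was at 178 ± 7.07, 68.5 ± 4.24 and 93.2 ± 5.18 FPKM in the same order of libraries. Snhg3 was at 85.2 ± 4.23, 27.4 ± 2.40 and 35.9 ± 2.76 FPKM. In these 3 genes mock was highest and the shKSRP-labelled library lowest, with no overlap of intervals, when assembled transcripts were included. On RefSeq transcripts alone Snhg3 was at 62.6, 27.4 and 26.6 FPKM, so of the 3 only Snhg8 kept this order.

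The same order held for 1110038B12Rik, which surrounds Snord52, at 345 ± 7.59 FPKM in mock, 114 ± 3.93 in the shKSRP-labelled library and 204 ± 7.10 in the BMP2 library. The highest host, 2410006H16Rik, carries Snord49a, Snord49b and Snord65 and was at 497 ± 10.2, 281 ± 7.33 and 302 ± 8.04 FPKM. Snhg12 was at 121 ± 4.1 in mock and close together in the others, at 57.0 ± 4.95 and 58.7 ± 2.90 FPKM. On RefSeq transcripts alone Snhg12 was at 121, 28.5 and 58.7 FPKM. The shKSRP-labelled library was then below the BMP2 library, with a log2 ratio of -1.02. Dancr, a long noncoding RNA that carries Snora26, was lowest in the BMP2 library, at 18.4 ± 1.63, 11.6 ± 1.28 and 7.91 ± 0.755 FPKM. On RefSeq transcripts alone Dancr was at 12.1, 6.93 and 7.91 FPKM, under 2-fold in each comparison and no longer lowest with BMP2. Snhg14, from the imprinted Snrpn region and kept by the rule, went the other way: 1.07 ± 0.221 in mock, 1.81 ± 0.242 in the shKSRP-labelled library and 8.62 ± 0.344 in the BMP2 library. Nearly all of the last value, 8.51 FPKM, lay on assembled transcripts, and with RefSeq transcripts alone (0.298, 1.03 and 0.103 FPKM) the BMP2 library was lowest.

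Snhg1, host of a series of box C/D snoRNAs, was at 158 ± 5.61 FPKM in mock and at 76.4 ± 3.94 with BMP2, and is listed at 0 in the shKSRP-labelled library. The deposited entry there carries the mark of full read support, which Cufflinks gives where reads cover all introns and internal exons, so the 0 does not show absence. AA465934, around Snord7, was at 111 ± 5.56 FPKM in mock and is listed at 0 with full read support in both other libraries. No fold is given for these.

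The remaining snoRNA hosts did not share one order. Snhg5 was at 88.3 ± 2.61 FPKM in mock, 33.9 ± 1.59 in the shKSRP-labelled library and 44.7 ± 2.35 in the BMP2 library, and Snhg6 at 69.2 ± 4.4, 28.3 ± 2.53 and 37.1 ± 3.16 FPKM. Epb41l4aos was at 28.9 ± 2.44, 12.1 ± 1.69 and 12.4 ± 1.63 FPKM, and its levels outside mock overlapped. Snhg20, Snhg16, Snhg7 and Snhg17 were highest in mock by less than 2-fold, at 37.9, 20.6, 17.9 and 11.2 FPKM there. Snhg10 was at 4.11 ± 0.835, 2.65 ± 0.654 and 3.47 ± 0.776 FPKM, with overlapping intervals. Snhg18 was lowest in the shKSRP-labelled library, at 9.44 ± 0.875, 5.88 ± 0.498 and 11.1 ± 0.725 FPKM.

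**Figure D1:**
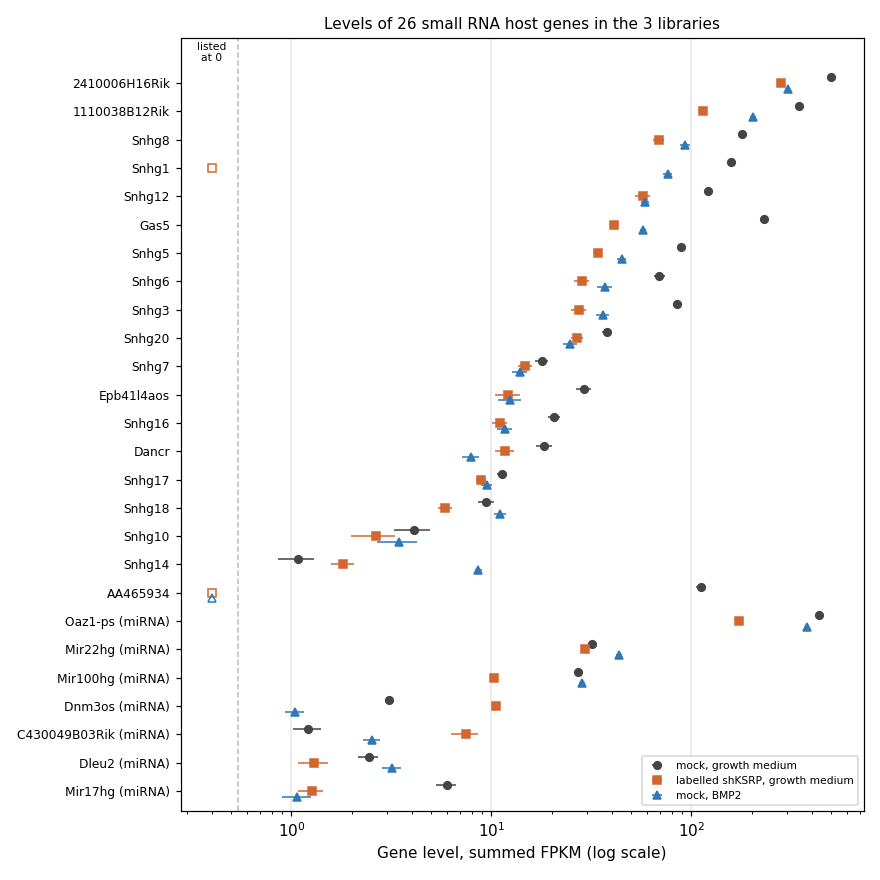
Levels of the 26 host genes. The x axis is summed FPKM on a log scale, each row is a gene, and the 3 markers are the libraries with their deposited 95% intervals as bars. Open markers left of the dashed line are genes listed at 0. Among the snoRNA hosts the mock library (circles) lies rightmost for most genes, Snhg14 and Snhg18 excepted. The miRNA hosts at the bottom show no common order.

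Differences were called by size alone, a log2 ratio of FPKM + 1 of at least 1 in either direction. Between the shKSRP-labelled library and mock, 10 of 19 snoRNA hosts were lower by 2-fold or more and 0 higher, with a median log2 ratio of -1.07. Over all 11452 genes, 12.9% were lower and 11.0% higher, with a median of -0.02. In the BMP2 library against mock, 7 of the 19 were lower and 1 higher, with a median of -0.88, beside 8.92% lower and 9.23% higher over all genes. The higher one was Snhg14. The library labelled shKSRP against the BMP2 library gave 2 lower and 0 higher, with a median of -0.29, beside 8.59% lower and 6.02% higher over all genes. The 2 were Snhg1, listed at 0, and Snhg14, whose direction turned on RefSeq transcripts alone. Genes listed at 0 made 2, 1 and 1 of the snoRNA host calls in the 3 comparisons. The first 2 comparisons share the mock library. All 200 noncoding genes together had 16 higher and 47 lower, 22 higher and 36 lower, and 15 higher and 21 lower in the same order, and 20 and 34, 25 and 26, and 18 and 18 once the trend over length was removed.

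snoRNA hosts are short, with a median longest transcript of 606 nt, and short genes were lower in these comparisons in general. Among 905 genes under 1000 nt, 26.5% were lower in the shKSRP-labelled library than in mock and 6.08% higher, with a median log2 ratio of -0.55. Among 5239 genes of 3000 nt or more, 7.12% were lower and 16% higher, with a median of 0.27. With the trend over transcript length taken out, 3 of the 19 snoRNA hosts stayed lower by 2-fold or more in the shKSRP-labelled library, with a median of -0.55, and 2 in the BMP2 library, with a median of -0.54. These were Gas5 and AA465934 in both and Snhg1 in the first, so apart from genes listed at 0 only Gas5 stayed past 2-fold. Gas5 kept a log2 ratio of -2.38 in the first and -2.03 in the second. A gene's length was that of its longest RefSeq transcript, and the Gas5 entry has 2554 nt. Most of the Gas5 level in mock lay on assembled transcripts, whose lengths were not used. On RefSeq transcripts alone, with the trend left in, its log2 ratio was -0.03 in the first and -1.23 in the second. The part of transcript length in the result beyond this was not tested.

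Some genes of proteins that bind snoRNAs were also lower outside mock. The list of small nucleolar ribonucleoprotein factors held 14 gene symbols, of which 13 were found among the measured genes. Against mock, 6 were lower by 2-fold or more in the shKSRP-labelled library (Fbl, Nop56, Snu13, Nop10, Nhp2 and Gar1) and 8 in the BMP2 library, with 0 higher in either and medians of -0.76 and -1.20, where 12.9% and 8.92% of all genes were lower. Fbl, the methyltransferase of box C/D particles, was at 149 FPKM in mock, 68.7 in the shKSRP-labelled library and 58.7 in the BMP2 library. Nhp2, a core protein of box H/ACA particles, was at 205, 70.8 and 69.9 FPKM. In the comparison of the shKSRP-labelled library with the BMP2 library, 0 of the 13 passed in either direction, with a median of 0.16. The trend over length was not taken out of the values of this list, and the part of length in them was not tested.

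The 7 microRNA hosts did not move as a group. C430049B03Rik, which carries miR-322, miR-503 and miR-351 on the X chromosome, was at 1.21 ± 0.192 FPKM in mock, 7.46 ± 1.15 in the shKSRP-labelled library and 2.53 ± 0.237 in the BMP2 library. Dnm3os, the opposite-strand transcript within Dnm3 that gives miR-199a and miR-214, was at 3.08 ± 0.155, 10.5 ± 0.360 and 1.04 ± 0.118 FPKM. Both were highest in the shKSRP-labelled library, where assembled transcripts held 5.52 and 6.99 FPKM of them. RefSeq transcripts alone gave Dnm3os 3.08, 3.54 and 1.04 FPKM, with mock and the shKSRP-labelled library close together. They gave C430049B03Rik 0.816, 1.94 and 2.53 FPKM, with the BMP2 library highest.

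Mir17hg, the host of the miR-17 to miR-92a cluster of proliferating cells, was lower in both other libraries, at 5.99 ± 0.688 FPKM in mock, 1.26 ± 0.179 in the shKSRP-labelled library and 1.07 ± 0.176 in the BMP2 library. RefSeq transcripts alone gave 3.19, 1.26 and 1.07 FPKM, short of 2-fold on the log2(FPKM + 1) scale in the shKSRP-labelled library. Mir100hg, around miR-125b, was at 27.1 ± 0.808, 10.3 ± 0.489 and 28.4 ± 0.837 FPKM, lowest in the shKSRP-labelled library. All of its mock value lay on assembled transcripts, and its direction against mock turned when RefSeq transcripts alone were counted. Mir22hg was at 31.8 ± 1.29, 29.5 ± 1.02 and 43.4 ± 1.49 FPKM, highest in the BMP2 library, and on RefSeq transcripts alone at 6.27, 13.5 and 14.8 FPKM, lowest in mock. Dleu2, host of miR-15a and miR-16, was at 2.43 ± 0.273, 1.3 ± 0.218 and 3.19 ± 0.362 FPKM. All of the Dleu2 level in mock lay on assembled transcripts, and RefSeq transcripts alone gave 0, 1.3 and 3.19 FPKM. The log2 ratios of the hosts with an AGCAGCA seed in the shKSRP-labelled library against mock were 1.94 for C430049B03Rik and -0.58 for Dleu2, and 0.69 and 1.20 on RefSeq transcripts alone, so their relation depends on that choice. Mature microRNAs were not measured here. Oaz1-ps, classed as a host for miR-1982, lies over the coding gene Oaz1, and its 436, 172 and 379.9 FPKM cannot be told apart from reads of that gene.

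Neat1 and Malat1, neighbouring nuclear RNAs on chromosome 19, were higher in both other libraries than in mock. Neat1 (NR_003513, 1 exon of 3177 nt, mm9 chr19:5842302-5845478) was at 98.8 ± 1.41 FPKM in mock, 187 ± 1.85 in the shKSRP-labelled library and 302 ± 2.50 in the BMP2 library. Malat1 (NR_002847, 1 exon of 6982 nt, mm9 chr19:5795690-5802671) was at 36.1 ± 0.697, 67.5 ± 0.740 and 99.2 ± 1.09 FPKM. For both the 3 intervals stood apart in the same order, and the log2 ratios against mock were 0.91 and 0.88 in the shKSRP-labelled library and 1.60 and 1.43 in the BMP2 library. Summed over assembled transcripts, only the BMP2 ratios reached 2-fold. On RefSeq transcripts alone Malat1 was at 16.3, 67.5 and 80.9 FPKM, past 2-fold in both, and Neat1 had no assembled part. With the length trend out, the BMP2 ratios were 1.50 and 1.18.

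Genes of proteins of these nuclear bodies were counted beside them. Of 16 paraspeckle and speckle proteins, 4 were lower by 2-fold or more in the shKSRP-labelled library than in mock (Pspc1, Tardbp, Srsf2 and Srsf3) and 0 higher, with a median log2 ratio of -0.62, where all genes had 12.9% lower and 11.0% higher. In the BMP2 library 3 were lower and 1 higher, with a median of -0.42, beside 8.92% and 9.23% of all genes. The higher one was Srrm2, a large speckle protein, at 20.5 FPKM in mock, 41.7 in the shKSRP-labelled library and 114 in the BMP2 library. Nono, a core paraspeckle protein, was at 160 FPKM in mock, 180.4 in the shKSRP-labelled library and 146 in the BMP2 library.

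Lockd, a noncoding RNA from downstream of the cell cycle inhibitor gene Cdkn1b, had the lowest ratios among long noncoding genes above 0 in both libraries. It was at 71.4 ± 5.59 FPKM in mock, 7.10 ± 0.982 in the shKSRP-labelled library and 8.16 ± 1.12 in the BMP2 library, with log2 ratios of -3.16 and -2.98. Its RefSeq transcript alone was at 21.7, 7.10 and 8.16 FPKM, a smaller gap in the same direction. Morrbid, a regulator of myeloid cell survival elsewhere, was at 25.4 ± 1.72, 9.35 ± 1.03 and 13.0 ± 1.27 FPKM. The uncharacterised RNAs 5430416N02Rik (32.0, 7.97 and 15.4 FPKM), 5730408K05Rik (21.8, 4.57 and 4.13 FPKM) and 2810408I11Rik (14.2, 2.91 and 3.00 FPKM) were also highest in mock. In each of these genes the mock interval lay above both others.

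Firre, an X-linked RNA of nuclear architecture, was higher outside mock, at 2.50 ± 0.20, 7.34 ± 0.398 and 6.78 ± 0.332 FPKM. All of the last value lay on assembled transcripts, and with RefSeq transcripts alone the direction against mock turned. Pvt1, the neighbour of Myc, separated the other libraries: 19.1 ± 0.763 in mock, 29.1 ± 0.773 in the shKSRP-labelled library and 11.9 ± 0.516 in the BMP2 library. On RefSeq transcripts alone, at 11.5, 25.4 and 8.51 FPKM, it passed 2-fold above mock in the shKSRP-labelled library. Crnde was lowest in the shKSRP-labelled library and highest in the BMP2 library, at 10.9 ± 0.819, 7.57 ± 0.815 and 20.4 ± 1.51 FPKM, but most of this was assembled. RefSeq transcripts alone gave 0, 1.61 and 3.13 FPKM, with mock lowest. The low RNAs 2610035D17Rik (1.55, 2.84 and 6.10 FPKM), 4933412E12Rik (3.21, 4.0 and 9.25 FPKM) and Dubr (2.72, 2.80 and 6.37 FPKM) were likewise highest in the BMP2 library. Dubr is known for a part in myoblast differentiation, and its RefSeq transcript alone was level, at 1.42, 1.23 and 1.44 FPKM. That of 2610035D17Rik, at 0.778, 0.924 and 2.29 FPKM, fell short of 2-fold on the log2(FPKM + 1) scale. Gm5577 was at 2.37 ± 0.219 FPKM in mock, 8.93 ± 0.657 with BMP2, and is listed at 0, with full read support, in the other library.

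Further entries were named for the ratio of the shKSRP-labelled library to the BMP2 library. For 2010204K13Rik the first held 5.27 ± 0.931 FPKM and the second 1.93 ± 0.630, with 9.35 ± 1.31 in mock, from which the BMP2 library differed most (log2 ratio -1.82). For 2310015B20Rik mock had 2.23 ± 0.705 FPKM, the shKSRP-labelled library 3.32 ± 0.881 and the BMP2 library 1.20 ± 0.522, and for A330069E16Rik 1.04 ± 0.312, 1.79 ± 0.552 and 0.493 ± 0.233 FPKM. On RefSeq transcripts alone A330069E16Rik was highest in mock. For 2310015B20Rik the mock interval overlapped both others. Scarletltr, an RNA named for its place in red cell maturation, was at 1.43 ± 0.639, 1.05 ± 0.634 and 3.77 ± 0.859 FPKM, and its shKSRP-labelled to BMP2 ratio turned with RefSeq transcripts alone. Among low entries named for a ratio against mock instead, 4933407K13Rik was at 0.791 ± 0.123, 2.32 ± 0.206 and 1.49 ± 0.180 FPKM. Gm19589 was at 2.43 ± 0.288, 0.570 ± 0.129 and 0.454 ± 0.126 FPKM. Without assembled transcripts Gm19589 was short of 2-fold on the log2(FPKM + 1) scale in every comparison.

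Other widely expressed RNAs stayed within 2-fold when assembled transcripts were included. Norad, which binds Pumilio proteins, was at 40.8 ± 0.723 FPKM in mock, 53.6 ± 0.790 in the shKSRP-labelled library and 55.0 ± 0.851 in the BMP2 library. Tug1 was at 25.9 ± 0.833, 33.0 ± 0.633 and 25.3 ± 0.632 FPKM. Oip5os1, also called Cyrano and known to drive the decay of miR-7, was at 19.1 ± 0.866, 13.4 ± 0.367 and 23.1 ± 1.16 FPKM. On RefSeq transcripts alone Norad kept these values, but Tug1 was at 6.49, 33.0 and 21.2 FPKM, past 2-fold above mock in both libraries, and Oip5os1 at 10.1, 0 and 16.2 FPKM. The accession NR_028432 was at 72.1 ± 2.53, 57.8 ± 2.16 and 77.8 ± 2.66 FPKM. Both 1810058I24Rik (76.7, 80.2 and 93.3 FPKM) and 2610001J05Rik (77.7, 48.2 and 57.8 FPKM) are protein coding genes in the RefSeq table used for names, as are 2 further genes of the class. Of the fixed list of well-known noncoding RNAs, Miat, Terc, Rmrp, Rn7sk, Zfas1, Rian, Mirg, Lincpint, Ptprv, Dlx6os1, Dlx1as, Hotair, Hotairm1 and Trp53cor1 had no transcript that met the conditions.

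Xist is listed at 0 in mock, at 21.4 ± 0.422 FPKM in the shKSRP-labelled library and at 5.88 ± 0.182 in the BMP2 library. Its entries in mock carry full read support, and transcripts assembled on the other strand over the same span held 39.5 FPKM in mock, 51.1 in the shKSRP-labelled library and 44.5 in the BMP2 library. With both strands added the locus came to 39.5, 72.5 and 50.3 FPKM, which is no contrast of absence and presence. The sources used here do not say whether the libraries keep strand.

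**Figure D2:**
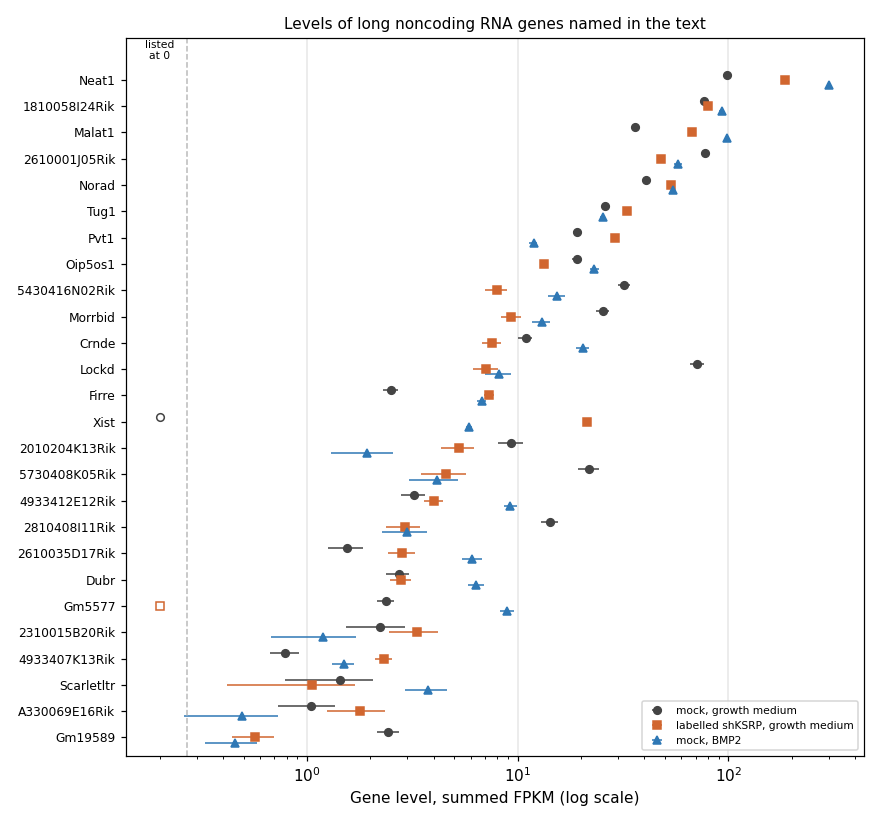
Levels of the long noncoding genes with a symbol that the naming rule picked. The x axis is summed FPKM on a log scale, rows are genes ordered by median, markers are the libraries and bars the deposited 95% intervals. Open markers are listed at 0. Neat1 and Malat1 are lowest in mock and highest in the BMP2 library, and Lockd has its circle at 71.4 FPKM with both others at or below 8.16 FPKM.

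The class as a whole was spread in both directions. In the shKSRP-labelled library against mock, 9 of 105 long noncoding genes were higher by 2-fold or more and 20 lower, with a median log2 ratio of -0.12, beside 11.0% and 12.9% of all genes. Of these 29 calls, 18 involve a gene listed at 0 in 1 of the libraries. In the BMP2 library against mock 16 were higher (15.2%) and 18 lower (17.1%), beside 9.23% and 8.92% of all genes. The median there was -0.05, and 17 of the 34 calls involve a 0. In the remaining comparison 9 were higher (8.57%) and 13 lower (12.4%), with a median of -0.09, beside 6.02% and 8.59% of all genes. With the length trend out, the median of the first comparison turned to 0.07, with 9 higher and 21 lower, and the others gave 19 higher and 17 lower, and 11 higher and 12 lower. Of the noncoding genes of all classes, 12 were listed at 0 in mock, 25 in the shKSRP-labelled library and 18 in the BMP2 library, and 10, 20 and 17 of them carried full read support. Examples are Chaserr (14.9 FPKM in mock) and Gt(ROSA)26Sor (12.8 FPKM in mock), both listed at 0 with that mark in the other libraries.

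**Figure D3:**
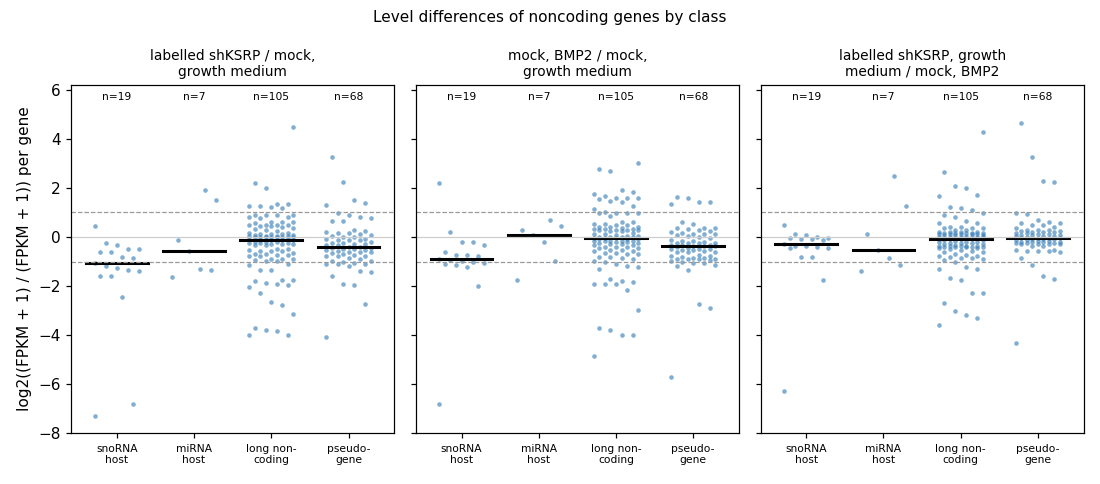
Log2 ratios of FPKM + 1 for each noncoding gene by class, in the 3 comparisons. Each point is a gene, black bars are class medians, dashed lines mark 2-fold and n is the number of genes. snoRNA hosts have medians of -1.07 and -0.88 against mock and -0.29 between the other libraries, while the long noncoding medians lie between -0.12 and -0.05.

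The highest long noncoding entry, NR_002218, was at 2137 ± 14.6 FPKM in mock, 1753 ± 12.6 in the shKSRP-labelled library and 1867 ± 13.8 in the BMP2 library. It lies on chromosome 14 (mm9 positions 76245138 to 76248105, minus strand) opposite Tpt1, an abundant translation-related gene, and without known strand its reads cannot be told apart from those of Tpt1. In all, 18 of the 105 genes were antisense to a coding gene or named as such. Among them Hoxa11os, opposite the limb patterning gene Hoxa11, was at 23.7 ± 0.935, 15.9 ± 0.740 and 29.9 ± 1.07 FPKM. Of the 18, 1 was higher and 2 lower by 2-fold or more in the shKSRP-labelled library against mock, beside 11.0% and 12.9% of all genes. The BMP2 library against mock gave 2 and 3, beside 9.23% and 8.92% of all genes. The remaining comparison gave 3 and 2, beside 6.02% and 8.59%. Genes listed at 0 made 3, 4 and 5 of these antisense calls in the 3 comparisons.

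Of the accession-only entries, 2 show why single transcripts can mislead. NR_027359 was at 6.66, 18.5 and 22.4 FPKM and NR_027360 at 36.8, 6.77 and 8.96 FPKM, in opposite directions. Yet both lie on the minus strand of chromosome 6 and end at the same place. Their sum was 43.5 FPKM in mock, 25.3 in the shKSRP-labelled library and 31.3 in the BMP2 library, with log2 ratios against mock of -0.76 and -0.46, short of 2-fold. NR_030772 and NR_030773, both over the coding gene Zfp821, likewise summed to 2.99, 5.24 and 8.10 FPKM. Of further entries over coding exons, NR_003544 was at 6.54 ± 0.423, 17 ± 0.635 and 13.9 ± 0.565 FPKM, and NR_036665, over Schip1, at 5.15 ± 0.465, 7.53 ± 0.507 and 3.83 ± 0.437 FPKM.

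Pseudogene entries were led by copies of abundant genes. Gm12191, over Rpl30, was at 2383 ± 21.7 FPKM in mock, 1655 ± 17.3 in the shKSRP-labelled library and 1408 ± 16.9 in the BMP2 library. Gm12070, a copy of the glycolytic gene Gapdh, was at 1181 ± 6.97, 900.3 ± 5.81 and 932 ± 6.28 FPKM, beside 1301, 964 and 997 FPKM for Gapdh. Its identity to Gapdh was 99.9% over 1002 aligned bases, beside an exon length of 1646 nt. Of the 68 genes, 57 had a GENCODE transcript, and 56 of these aligned to a coding transcript over some stretch, with a median identity of 98.0%. In 46 the match had at least 90% identity over at least 50% of the GENCODE transcript, and 14 of these lay over a coding gene. Reads of such copies and of the coding genes cannot be told apart with certainty. Other abundant entries over coding genes were Gm15772 (Rpl26) at 924, 919 and 713 FPKM, Gm6793 (Hnrnpa3) at 369, 348 and 283 FPKM, Gm10052 (Hnrnpa1) at 186, 189 and 166 FPKM and Gm6644 (Akr1b3) at 184, 176 and 91.4 FPKM. Each of these was lowest in the BMP2 library.

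Differences of some pseudogene entries lay beside a like difference of their best coding match. Gm5424 was at 32.8 ± 1.20 FPKM in mock, 94.4 ± 1.94 in the shKSRP-labelled library and 19.3 ± 0.935 in the BMP2 library. Over the aligned bases it was 99.5% identical to Ass1 (argininosuccinate synthase, an enzyme of arginine synthesis). Ass1 was at 60.7, 203 and 33.5 FPKM. The entry 2700099C18Rik, which resembles the kinetochore gene Ndc80, was at 18.8 ± 1.22, 4.17 ± 0.458 and 8.37 ± 0.651 FPKM, and Ndc80 at 37.2, 11.1 and 11.7 FPKM. Without assembled transcripts 2700099C18Rik was at 8.87, 4.17 and 5.64 FPKM, short of 2-fold on the log2(FPKM + 1) scale. Gm6682 and its match Tuba1c, an alpha tubulin, had log2 ratios of -1.60 and -1.24 in the shKSRP-labelled library relative to mock, and Gm6682 had -0.65 on RefSeq transcripts alone, which ends that call. Npm3-ps1 was at 35.4 ± 1.62, 17.4 ± 1.09 and 14.9 ± 1.07 FPKM, and its match Npm3, a histone chaperone gene, at 88.6, 50.9 and 41.0 FPKM.

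Counted were 31 pseudogenes apart from coding exons, with a measured match at 90% identity or more over at least 50% of their GENCODE transcript. Of these, 24 lay below the match in all 3 libraries. The GENCODE transcript can be much shorter than the RefSeq entry measured: E030024N20Rik aligned over 495 bases, beside an exon length of 6361 nt. The median gap between the log2 ratio of the entry and that of the match was 0.29 in the shKSRP-labelled library against mock and 0.31 in the BMP2 library against mock. The first comparison had 7 of the 31 entries lower by 2-fold or more, and in 4 of those the match was too. It had 1 entry higher, with its match, while 6 matches were lower and 6 higher. The second had 4 entries lower, 2 of them with the match, and 1 higher, with its match. In the shKSRP-labelled library against the BMP2 library 2 entries were lower, 0 with the match, and 2 higher, 1 with the match. Exceptions were 6820431F20Rik, at 53.0, 59.3 and 52.1 FPKM beside 0.424, 22.2 and 2.00 FPKM for Cdh11, a cadherin of mesenchymal cells, and Tmem181b-ps, at 7.44, 7.85 and 8.31 FPKM beside Tmem181a, listed at 0 in mock and at 13.3 and 9.71 FPKM in the others. Another was Gm3219, at 51.1 FPKM in mock, 24.1 in the shKSRP-labelled library and listed at 0 in the BMP2 library with full read support. Against mock, 2 entries went the opposite way to their match in the shKSRP-labelled library. Alms1-ps2, listed at 0 there, had a log2 ratio of -1.96 beside 0.94 for Alms1. Gm14405 had -1.11 beside 1.10 for Zfp966.

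**Figure D4:**
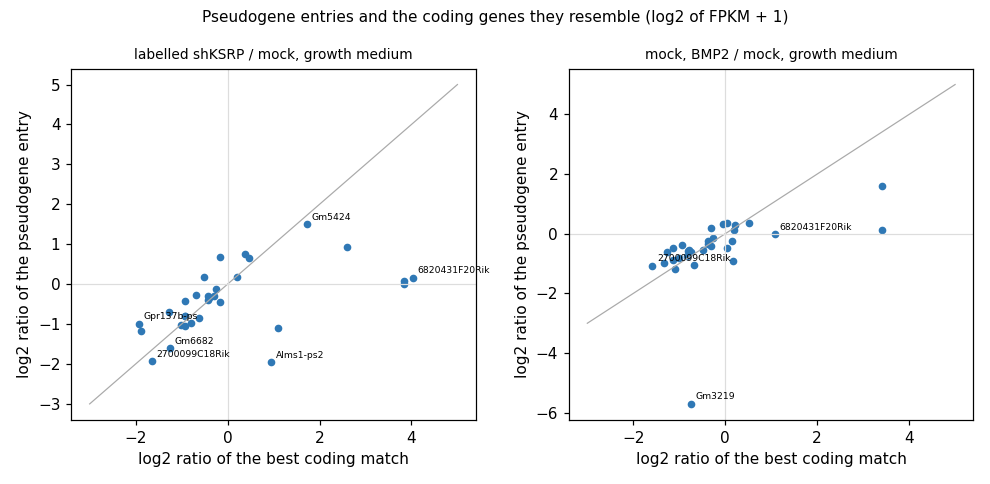
Log2 ratios of FPKM + 1 of 31 pseudogene entries (y axis) against those of the coding gene each resembles most (x axis), for the shKSRP-labelled library (left) and the BMP2 library (right) against mock, which both panels share. The grey line marks equal ratios. Gm5424 lies at 1.50 beside 1.72 for Ass1, and 6820431F20Rik near 0 beside 4.03 for Cdh11.

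Some pseudogenes with no aligned coding match of that quality were higher outside mock. Of those below, Ubb-ps, Pisd-ps3, Hmga2-ps1 and 4933409K07Rik had no GENCODE transcript, so a coding match was not sought for them. Ubb-ps, a ubiquitin copy, was at 63.2 ± 3.29 FPKM in mock, 111 ± 4.2 in the shKSRP-labelled library and 164 ± 5.29 in the BMP2 library. Pisd-ps3 was at 14.6 ± 0.671, 39.9 ± 0.944 and 40.9 ± 0.977 FPKM, and Zfp862-ps at 1.87 ± 0.176, 12.6 ± 0.340 and 7.99 ± 0.332 FPKM. Hmga2-ps1, named for a chromatin protein of growing cells, was lower, at 13.4 ± 0.781, 4.38 ± 0.425 and 5.53 ± 0.508 FPKM. The entry 5830417I10Rik was at 3.67 ± 0.152, 8.33 ± 0.247 and 3.75 ± 0.156 FPKM, 4933409K07Rik at 18.3 ± 0.503, 12.4 ± 0.396 and 19.1 ± 0.522 FPKM, and Thap6 at 1.92 ± 0.182, 1.49 ± 0.153 and 2.76 ± 0.223 FPKM. Counted over the class, 5 of 68 were higher and 13 lower in the shKSRP-labelled library against mock, with a median of -0.40, and 5 higher and 9 lower in the BMP2 library, with a median of -0.37. Over all genes 11.0% were higher and 12.9% lower in the first and 9.23% and 8.92% in the second. The last comparison had 4 in each direction and a median of -0.04, beside 6.02% and 8.59% of all genes. With the length trend out the counts became 9 higher and 7 lower, 5 higher and 4 lower, and 5 higher and 3 lower, so the excess of lower pseudogenes against mock was gone.

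Variants of coding genes were followed by the transcript's own FPKM and its share of the gene. Of the 84, 20 were higher and 24 lower by 2-fold or more in the shKSRP-labelled library against mock, where 33 of the 44 calls involve a transcript listed at 0. Over all 11806 RefSeq transcripts past the same filter, 20.4% were higher and 15.7% lower. In the BMP2 library against mock 16 were higher and 12 lower, beside 16.2% and 12.6%. In the shKSRP-labelled library against the BMP2 library 12 were higher and 15 lower, beside 12.6% and 11.5%. The median share of the gene among variants above 0 was 25.5% in mock, 22.0% in the shKSRP-labelled library and 27.3% in the BMP2 library.

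The Clk1 variant NR_027854 belongs to a kinase of SR proteins and was at 4.26 ± 0.362 FPKM in mock, 18.6 ± 0.695 in the shKSRP-labelled library and 13.2 ± 0.631 in the BMP2 library. Its share of Clk1 was 8.86%, 27.4% and 14.4%. The other Clk1 variant, NR_027853, was at 12.2, 14.5 and 11.0 FPKM, with shares of 25.5%, 21.3% and 12%. The Srsf3 variant NR_036613 was listed at 0 in mock, with full read support, and was at 14.1 and 17.6 FPKM in the others. Srsf3 as a gene was at 198, 78.6 and 155 FPKM. The Srsf7 variant NR_036615 had the reverse pattern, at 17.4 FPKM in mock and listed at 0 in both others, again with full read support. Srsf3 and Srsf7 variants were named after their values were seen.

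Among the other variants, the Arhgap1 transcript NR_027372 was at 13.1, 47.3 and 35.9 FPKM, with shares of 40.7%, 100% and 65.4% of the gene. The NR_ entry of Atf5, a stress-response transcription factor, held all of the gene's FPKM in each library, at 118, 209 and 41.3 FPKM, and so gives the level of the gene. The Rabggtb variant NR_028094 has Snord45b and Snord45c within it and was at 24.6, 6.50 and 12.4 FPKM, highest in mock. Gnas NR_003258, from an imprinted locus that the rule kept, was the most abundant variant, at 496, 392 and 448 FPKM, while its share of Gnas was 66.3% in mock, 42.5% in the shKSRP-labelled library and 32.6% in the BMP2 library.

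The remaining named variants were as follows. Brd2, a bromodomain protein, had 42.2, 32.8 and 39.6 FPKM on its variant, and Taf1d, a factor of ribosomal RNA transcription, 33.5, 15.0 and 19.8 FPKM. The latter held 100%, 81.6% and 100% of its gene. Variants of Bmp1 (0, 19 and 11.7 FPKM) and Rbmx (0, 11.5 and 3.84 FPKM) were listed at 0 in mock with full read support. The Kat5 variant, from an acetyltransferase gene, was highest in the BMP2 library, at 4.73 ± 0.537, 3.73 ± 0.452 and 13.0 ± 0.819 FPKM, and so was that of Tmem41a, at 5.03 ± 0.705, 1.28 ± 0.349 and 7.21 ± 0.825 FPKM. Variants of Vash2 (7.08, 16.8 and 11.0 FPKM) and Rnf44 (3.37, 9.31 and 3.48 FPKM) were highest in the shKSRP-labelled library, where the Vash2 entry, as in each library, held all of the gene, and that of Sqor lowest there, at 16.5, 6.63 and 16.3 FPKM. Those of Pde2a, Yars2, Tslp, Zfp57 and Adamts10 stayed below 4 FPKM in every library.

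**Figure D5:**
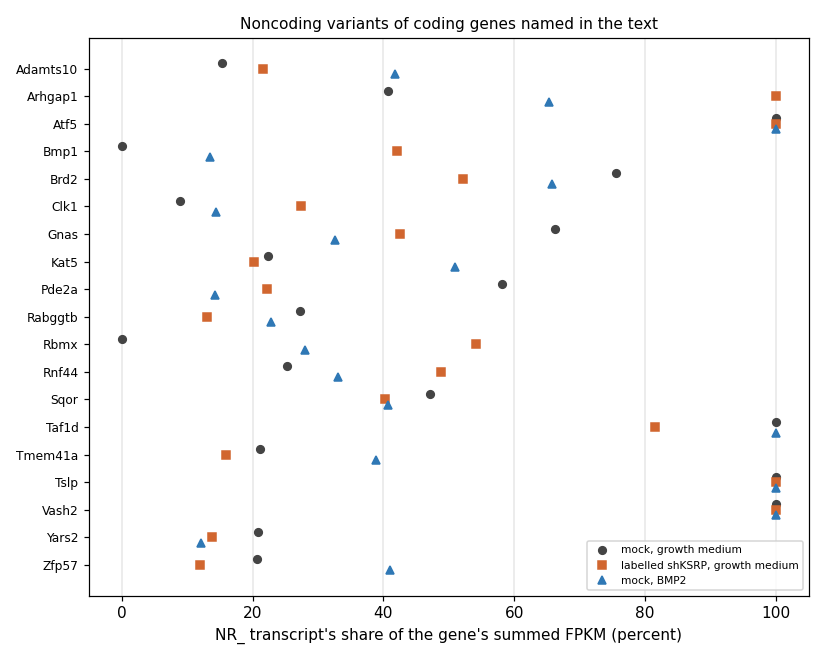
Share of the gene's summed FPKM (x axis, percent) held by each named NR_ variant in the 3 libraries. Each row is a gene and each marker a library. Atf5 stays at 100%, and Arhgap1 runs from 40.7% in mock to 100% in the shKSRP-labelled library.

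Upf1, the central helicase of nonsense-mediated decay, was at 17.8 FPKM in mock, 17.7 in the shKSRP-labelled library and 16.5 in the BMP2 library. Rpph1, the RNA of ribonuclease P, was at 14.3 ± 2.36 FPKM in mock, was listed at 0 in the shKSRP-labelled library without full read support, and was at 0.199 ± 0.281 in the BMP2 library. It has no poly(A) tail.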

How the data were processed

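Each deposited file lists transcripts with their FPKM and 95% bounds, per the file headers and attributes, as the authors made them with Cufflinks. The score column the authors deposited beside them was not used. Named in the submitters' processing notes are mm9, Cufflinks 1.3.0, TopHat 1.4.1, Bowtie 0.12.7 and CASAVA 1.8, without a role. Of 28222 accessions, 27559 were named from a RefSeq table (GRCm38.p6, used for names and printed sequences), 170 from GENCODE, 216 from the files, and 277 kept the accession. A gene's FPKM was summed over its RefSeq transcripts and the assembled transcripts of its Cufflinks locus overlapping it most, and half-widths were combined as the root of summed squares. Ratios are log2 of FPKM + 1, called at 2-fold, which understates changes of low genes. The background is every gene, or RefSeq transcript, of 300 nt or more at 1 FPKM or more in at least 1 library. Members and lists were chosen with earlier results of these data known. Named genes were the 6 highest per class, the 6 (long noncoding) or 3 (host, pseudogene) highest and lowest ratios per comparison above 0 in both libraries, and a fixed list. For variants they were the 6 highest and the 4 highest and lowest ratios. The text gives those of them on which a statement rests, and other names were chosen after their values were seen. The length trend is a lowess curve (statsmodels 0.14.6). GENCODE transcripts of the pseudogenes were aligned to GENCODE coding transcripts with BLAST 2.17.0. Python 3.11.15, numpy 2.4.6, pandas 2.3.3 and matplotlib 3.10.9 were used, and the call rule was tested on simulated data. Some items are not reported here.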

Additional observations from a re-analysis of the deposited data

How the results depend on the processing

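Counts past 2-fold moved by over 1.5 times under some settings, in the order shKSRP-labelled against mock, BMP2 against mock, and shKSRP-labelled against BMP2. For the 200 noncoding genes, counts of 63, 58 and 36 became 38, 30 and 18 with a pseudocount of 5, and 35, 30 and 11 among genes above 0 in all 3 libraries. They became 27, 31 and 20 among genes sharing no locus, an alternative with fewer genes, and a minimum of 5 FPKM gave 38 in the second and 18 in the third. Variant counts of 44, 28 and 27 became 15, 10 and 7 with a pseudocount of 5, 22, 13 and 11 at 5 FPKM, and 10, 5 and 6 among transcripts above 0. Host genes lower by 2-fold numbered 13 and 8 against mock, 5 and 4 with the length trend out, and 3 and 1 without shared loci. In the BMP2 comparison a pseudocount of 5 also gave 4. The length trend changed the higher and lower noncoding counts from 16 and 47 to 20 and 34, from 22 and 36 to 25 and 26, and from 15 and 21 to 18 and 18. Other settings left these counts within 1.5 times. With NR_ transcripts alone 23 of 201 single ratios turned sign, 14 of them under 2-fold as reported and 9 at 2-fold or more. In shKSRP-labelled against mock the 9 included Mir100hg at 2.90, NR_027359 at -2.94, NR_027360 at 0.049 and NR_030772 at -0.091. In BMP2 against mock they included Firre at -0.86 and Snhg14 at -0.23. In shKSRP-labelled against BMP2 they were C430049B03Rik at -0.26, Scarletltr at 1.04 and Snhg14 at 0.88. Apart from what the settings themselves remove, the cause was not tested. The host count under each setting, and classes apart from coding exons, were added after seeing the data. No paired analysis was possible because each group has 1 library.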
